A study of Mus musculus with 4 samples.

Results

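The genes described here are 10 C-type lectin receptors of myeloid cells, Clec4a1, Clec4a2, Clec4a3, Clec4d, Clec4e, Clec4n, Clec5a, Clec7a, Clec12a and Cd209a, of 30142 genes that the arrays measured with an unambiguous symbol. A probe set counted for a gene when the platform annotation gave it exactly 1 symbol. Among several probe sets of a gene, the one to use was to be selected on its mean signal across the arrays, but each of the 10 genes had exactly 1. The genes are a receptor family, chosen by name with their differences between combination and vehicle arrays already known, so these differences are a description and their p-values support nothing.

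The series compared Lin- c-Kit+ (LK) cells, in which blood stem and progenitor cells are enriched, after 4 h in StemSpan medium. They came from NOD (non-obese diabetic) mice, which develop autoimmune diabetes. The combination group (2 arrays) was held with dmPGE2 (10 µM), a long-lived analog of prostaglandin E2, and dexamethasone (10 µM), a synthetic glucocorticoid, and the vehicle group (2 arrays) with DMSO. All groups share the strain, the sort and the culture, no array carried a single drug, and the labels give neither the age of the mice nor the source of each duplicate. The design text calls the duplicates biological, and with 2 arrays per group the SDs and standard errors measure only the spread between these arrays.

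C-type lectin receptors carry a carbohydrate-recognition type domain on the cell surface and let myeloid cells sense fungi, mycobacteria and dying cells. Dectin-1 (Clec7a) signals to the kinase SYK through a tyrosine motif in its own tail, Mincle (Clec4e), MCL (Clec4d) and Dectin-2 (Clec4n) do so through the Fc receptor gamma chain (Fcer1g), and MDL-1 (Clec5a) through DAP12 (Tyrobp). DCIR (Clec4a2) and MICL (Clec12a) instead carry inhibitory motifs that recruit phosphatases such as SHP-1 (Ptpn6). Many of these genes mark monocytes, neutrophils and dendritic cells, so their levels also follow which maturing myeloid cells a sample holds.

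The 10 lectins did not share a single direction. On the combination arrays 3 of them (Clec4d, Clec4e and Clec4n) lay above both vehicle arrays and 4 (Clec7a, Cd209a, Clec4a3 and Clec4a1) below both. The other 3 (Clec4a2, Clec12a and Clec5a) overlapped with vehicle. Over all 30142 genes, 19.7% had combination arrays above both vehicle arrays and 15.4% below both. A difference of at least 2-fold without overlap was seen in 3 lectins upward and in 3 downward, against 0.773% and 0.398% of all genes and 1.66% and 0.874% of the 13394 genes with an array above the background probe sets. The median absolute difference was 1.63 on the log2 scale over the 10 lectins and 0.12 over all genes. Since the family was chosen for such differences, nothing is read from these shares.

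**Figure D1:**
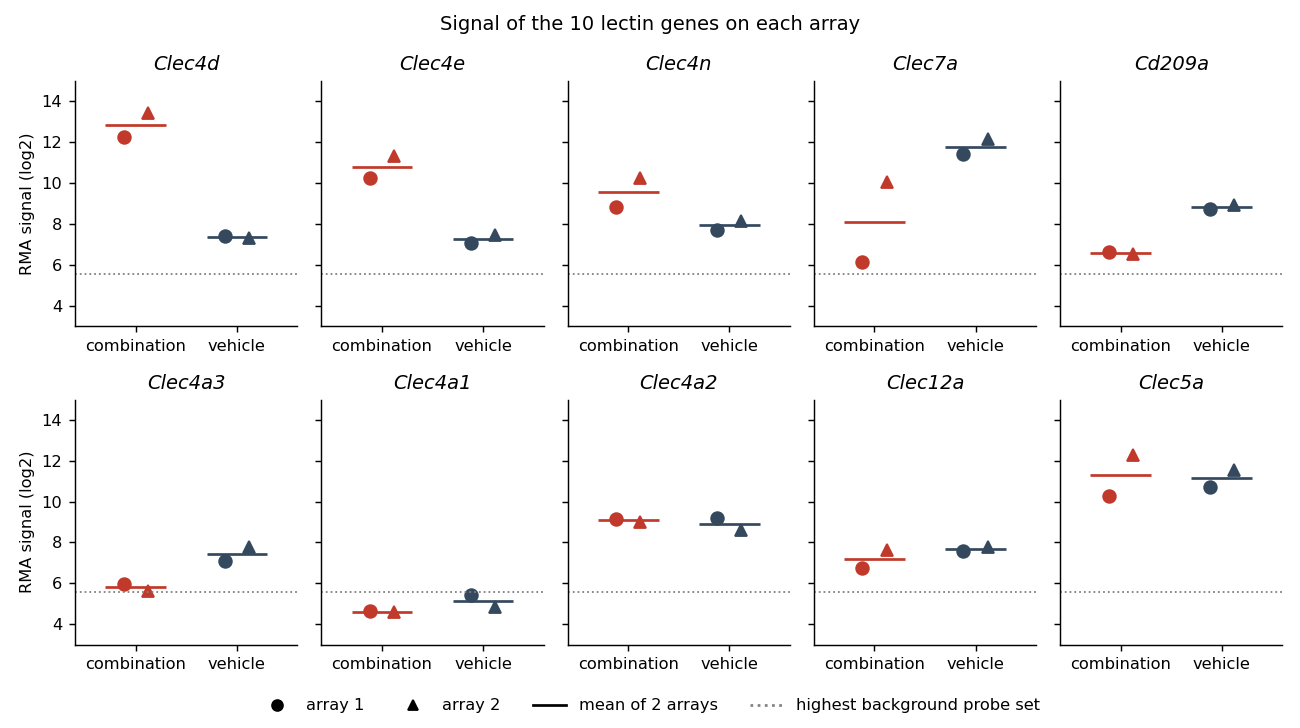
RMA signal on the log2 scale (y axis) of each of the 10 lectin genes on the 2 combination arrays (red, left) and the 2 vehicle arrays (dark blue, right). Circles are array 1, triangles array 2, bars the mean of the 2 arrays and the dotted line the highest background probe set (5.55). Clec4d, Clec4e and Clec4n sit higher on both combination arrays, while Clec7a has 1 combination array at 6.11 and the other at 10.06.

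In limma's fit over all 65956 features, 0 of the 10 lectins passed an adjusted p of 0.05, as did 0.00303% of all features (2 of them). The lectins' adjusted p in limma lay between 0.132 and 0.995, and 6 of them had an unadjusted p under 0.05, as did 5.31% of all genes. In the following, each value is an RMA signal (log2), differences are combination minus vehicle on that scale, the SE is limma's, SDs are over 2 arrays, and a fold is the difference taken out of the log scale. RMA compresses low signals, so folds of dim genes are understated. These are bulk samples, in which fewer cells of a type and less RNA per cell cannot be told apart.

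Clec4d, the receptor MCL that pairs with Mincle and helps bring it to the surface, was at 12.27 and 13.41 on the combination arrays, against 7.39 and 7.33 on the vehicle arrays. Both combination arrays lay far above both vehicle arrays, which were nearly equal. The means were 12.84 ± 0.81 with the combination and 7.36 ± 0.04 with vehicle (SD, n = 2 each), a difference of 5.48 (SE 0.40, 95% interval 4.43 to 6.53) or 44.6-fold, and only 2 genes on the arrays had a larger upward difference. Clec4e, which encodes Mincle, a receptor for mycobacterial cord factor and for a ligand released by dying cells, was at 10.23 and 11.33 with the combination, against 7.08 and 7.45 with vehicle. It too showed no overlap, with a difference of 3.52 (SE 0.40, interval 2.45 to 4.58), 11.4-fold, and 20 genes differed further upward.

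Clec4n, which encodes Dectin-2, a receptor for fungal mannans, was at 8.84 and 10.27 with the combination, against 7.72 and 8.13 with vehicle. The groups did not overlap, but the gap between the combination arrays (1.42) was close to the difference itself, 1.63 (SE 0.50, interval 0.30 to 2.96), 3.09-fold. All 3 genes were highest on combination array 2, and all their values lay above the highest background probe set, 5.55.

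Sequence just before the annotated start of the lectins is shown for the 4 with the largest differences, since Clec4d and Clec4e, neighbours on chromosome 6, were both higher with the combination while Clec7a and Cd209a were lower. The windows hold the 250 bases before the start, 5′ to 3′ along the gene's strand, from RefSeq on GRCm38.p6. An entry existed for 9 of the 10 lectins, all but Clec4n. Capitals mark matches, on either strand, to the letters of 6 motifs. They are TTGCNNAA, bound by C/EBP factors, and GAGGAA, bound by PU.1, a master regulator of myeloid genes. The glucocorticoid receptor was searched by the hexamer AGAACA and the cAMP response element by its core, written TGACG. AP-1 was searched as TGANTCA, and the TATA box by the letters TATAAA. No 2 matches in these 4 windows overlap. The 4 windows lie at chr6:123261857-123262106 (plus strand) for Clec4d, chr6:123289872-123290121 (minus) for Clec4e, chr6:129472780-129473029 (minus) for Clec7a, which has a second listed start, and chr8:3748985-3749234 (minus) for Cd209a.
Clec4d: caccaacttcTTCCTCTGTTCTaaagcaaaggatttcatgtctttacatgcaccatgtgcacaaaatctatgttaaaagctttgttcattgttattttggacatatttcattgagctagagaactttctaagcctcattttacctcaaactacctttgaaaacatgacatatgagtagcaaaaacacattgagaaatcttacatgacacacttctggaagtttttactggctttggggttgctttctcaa
Clec4e: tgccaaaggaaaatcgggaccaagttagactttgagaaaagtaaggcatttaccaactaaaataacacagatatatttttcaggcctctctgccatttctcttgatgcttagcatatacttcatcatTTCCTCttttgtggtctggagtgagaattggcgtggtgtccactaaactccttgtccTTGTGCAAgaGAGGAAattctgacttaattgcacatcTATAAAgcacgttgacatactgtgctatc
Clec7a: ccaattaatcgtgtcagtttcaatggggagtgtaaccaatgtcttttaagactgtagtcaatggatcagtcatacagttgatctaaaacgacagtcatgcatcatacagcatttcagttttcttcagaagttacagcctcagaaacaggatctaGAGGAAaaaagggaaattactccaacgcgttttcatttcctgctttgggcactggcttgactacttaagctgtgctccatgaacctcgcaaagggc
Cd209a: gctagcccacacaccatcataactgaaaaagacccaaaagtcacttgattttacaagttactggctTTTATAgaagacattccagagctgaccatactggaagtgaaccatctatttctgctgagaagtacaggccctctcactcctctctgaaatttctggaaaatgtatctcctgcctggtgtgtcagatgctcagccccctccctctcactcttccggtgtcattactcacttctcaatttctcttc

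The Clec4e window held letters of 3 kinds close to its start: TTGTGCAA, a C/EBP match, from base 66 to 59 before the start, GAGGAA from base 56 to 51, and TATAAA from base 29 to 24. The Clec4d window held TTCCTC directly followed by TGTTCT, the reverse strands of the PU.1 letters and of the glucocorticoid receptor hexamer, from base 240 to 229. The Clec7a window held GAGGAA once, from base 96 to 91, and that of Cd209a only the TATA letters, from base 184 to 179. Only the first listed window of each lectin was searched, although Clec4a3 and Clec7a have 2. The shares below are instead over all listed windows, so the units differ where a gene has several. PU.1 letters occurred in 6 of the 9 windows and in 23.3% of all 32851 listed windows. C/EBP letters were in 2 (Clec4e and Clec12a) and in 9.56%, and the glucocorticoid receptor hexamer in 1 and in 16.1%. TATA letters stood in 4 of the 9 and in 12.4% of all windows, and AP-1 letters in 1 and in 6.75%. The core of the cAMP response element was in 0 of the 9 windows and in 17.8% of all windows. A match is a run of letters in a short window and was not tied to binding.

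Clec7a, which encodes Dectin-1, the receptor for fungal beta-glucan, stood at the other end of the family. It was at 6.11 and 10.06 with the combination, against 11.40 and 12.15 with vehicle. Both combination arrays lay below both vehicle arrays, but they were also 3.94 apart, and array 1 was just above the highest background probe set. The means were 8.08 ± 2.79 with the combination and 11.78 ± 0.52 with vehicle, a difference of -3.69 whose interval ran from -7.20 to -0.18 (SE 1.33). Combination array 1 minus vehicle array 1 gave -5.29, and the same for arrays 2 gave -2.09. Without combination array 1 the fitted difference was -1.72, and without combination array 2 it was -5.66. No gene had a larger mean difference downward, and no gene was higher on combination array 2 than on combination array 1 by more than Clec7a. In either direction, 25 genes had a larger gap between the combination arrays. On the vehicle arrays 479 genes were higher on array 2 by more than Clec7a, whose gap there was 0.74.

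Cd209a, a mouse relative of the human pathogen receptor DC-SIGN that is used as a marker of monocyte-derived dendritic cells, had the tightest pattern of the lectins with a large difference. It was at 6.62 and 6.51 with the combination, against 8.71 and 8.92 with vehicle. The difference was -2.25 (SE 0.15, interval -2.63 to -1.86), 4.74-fold lower with the combination, and it was -2.09 and -2.41 within the arrays numbered 1 and 2. On the arrays 10 genes differed further downward. Its limma p was the smallest of the family (adjusted p = 0.132).

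Clec4a3 (DCIR3) was at 5.97 and 5.63 with the combination, against 7.09 and 7.77 with vehicle, a difference of -1.62 (SE 0.28), and the combination values lay just above the highest background probe set. Clec4a1 (DCIR4) was at 4.62 and 4.58 with the combination, against 5.43 and 4.83 with vehicle. All 4 of its values lay within the range of the background probe sets, so its lack of overlap, with a difference of -0.53 (SE 0.23), says little about the gene. Clec4a2, which encodes DCIR, the inhibitory receptor for which this subfamily is named, was at 9.14 and 9.03 with the combination, against 9.17 and 8.63 with vehicle. The groups overlapped and the interval of its difference, 0.18 (SE 0.22), ran from -0.40 to 0.77.

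Clec12a, which encodes MICL, an inhibitory receptor that recognises uric acid crystals, was at 6.75 and 7.61 with the combination, against 7.58 and 7.78 with vehicle. Combination array 1 was the low value, the other 3 arrays lay close together, and the interval of the difference of -0.50 (SE 0.32) ran from -1.33 to 0.34. Clec5a, which encodes MDL-1, was at 10.28 and 12.28 with the combination, against 10.72 and 11.54 with vehicle. The order followed the array number more than the group: array 2 was above array 1 by 2.00 with the combination and by 0.82 with vehicle, and the difference between the groups, 0.15 (SE 0.72), had an interval from -1.76 to 2.06. The gap of Clec5a between the combination arrays was passed by 8 genes in the same direction and by 122 genes in either direction.

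**Figure D2:**
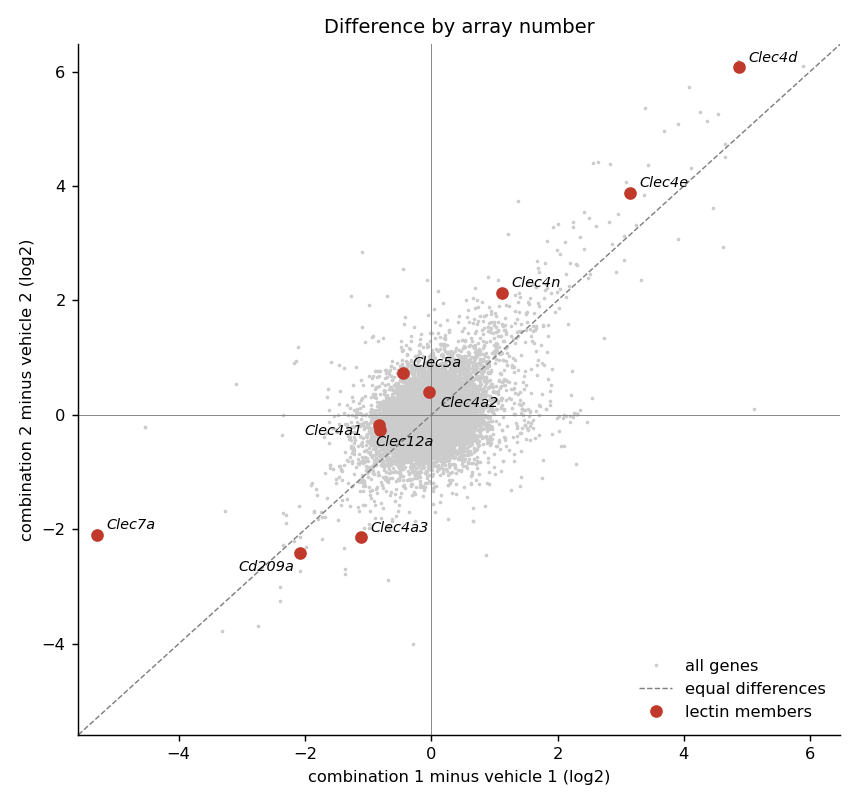
Difference between combination array 1 and vehicle array 1 (x axis) against that between combination array 2 and vehicle array 2 (y axis), log2, for all 30142 genes (grey) and the 10 lectins (red), with the line of equal differences dashed. Clec4e (3.15 and 3.88) and Cd209a (-2.09 and -2.41) lie near the line, Clec4d (4.88 and 6.08) lies further above it, and Clec7a (-5.29 and -2.09) is the farthest of the lectins from it.

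The arrays numbered 1 and 2 gave different sizes for several lectins. The difference of Clec4d was 4.88 for number 1 and 6.08 for number 2, that of Clec4e 3.15 and 3.88, and that of Clec4n 1.12 and 2.14. For Clec4a3 it was -1.11 and -2.13, and for Clec5a and Clec4a2 it even had opposite signs, -0.44 and 0.74 for Clec5a and -0.03 and 0.40 for Clec4a2. Array 2 was above array 1 in both groups for 5 of the 10 lectins (Clec4e, Clec4n, Clec5a, Clec7a and Clec12a), as for 30.1% of all genes.

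Some genes of late neutrophil granules differed between the array numbers in the opposite direction. Camp, an antimicrobial peptide of neutrophil granules, was at 12.80 and 8.41 on combination arrays 1 and 2 and at 13.51 and 7.63 on vehicle arrays 1 and 2. Over 4 late granule genes, Camp, Ltf, Ngp and Retnlg, picked after their values were seen, array 2 minus array 1 was between -5.05 and -2.86 with the combination and between -6.13 and -2.32 with vehicle. The smallest gaps were those of Retnlg, which lay within the background range on array 2 of both groups, so they may be understated. Other genes on the list of neutrophil markers went both ways. For S100a8, array 2 minus array 1 was -1.09 with the combination and -1.30 with vehicle. It was -1.27 and -1.52 for S100a9 and -0.76 and -1.95 for Mmp8. Mpo and Prtn3 were instead higher on array 2 in both groups. Csf3r, the receptor for the granulocyte growth factor G-CSF, was higher on array 2, by 0.42 with the combination and by 1.01 with vehicle. For Cxcr2, a chemokine receptor of neutrophils, array 2 minus array 1 was 1.08 with the combination and -0.19 with vehicle. Elane, a granule gene of earlier cells, was at 17.68 and 17.94 with the combination and at 17.78 and 17.97 with vehicle. The adaptor genes Fcer1g and Tyrobp went the way of Clec5a. Fcer1g was at 8.09 and 9.24 with the combination and at 8.07 and 8.99 with vehicle, and Tyrobp at 11.65 and 12.32 and at 11.63 and 12.45. Hcst, another adaptor gene, was higher on array 2 only with the combination. It was at 7.52 and 8.10 with the combination and at 7.67 and 7.53 with vehicle. The part of these markers in the lectins' differences between arrays was not tested.

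**Figure D3:**
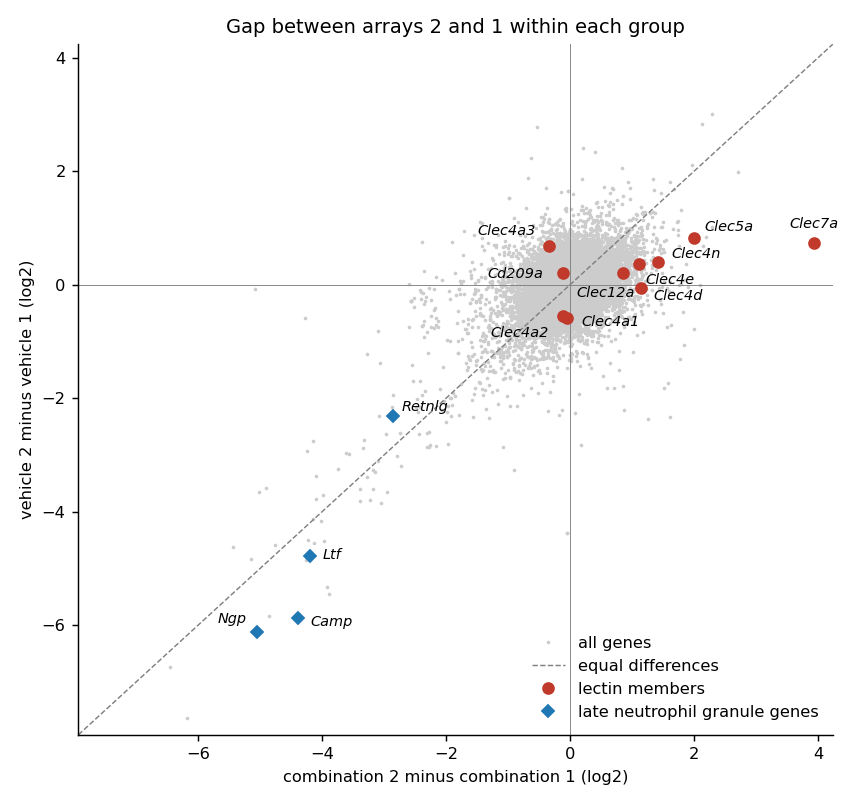
Gap between arrays 2 and 1 on the combination arrays (x axis) and on the vehicle arrays (y axis), log2, for all genes (grey), the 10 lectins (red circles) and 4 late neutrophil granule genes (blue diamonds), with the line of equal gaps dashed. Clec7a (3.94 with the combination and 0.74 with vehicle) stands farthest right of all genes, and Camp, Ltf, Ngp and Retnlg lie to the lower left near the line.

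Clec5a lies elsewhere on chromosome 6 and Cd209a on chromosome 8, and the other lectins lie in 2 clusters of chromosome 6. In the RefSeq order (GRCm38.p6) the Dectin-2 cluster reads Clec4a1, Clec4a3, Clec4a4, Clec4b1, Clec4a2, Clec4b2, Clec4n, Clec4d and Clec4e, 9 protein-coding genes that were all measured. The last 3, which are next to each other, were the ones higher with the combination, by 1.63, 5.48 and 3.52. Combination arrays above both vehicle arrays were seen in none of the other 6 and in 19.7% of all genes. Clec4a1, Clec4a3 and Clec4b1 lay below both, as did 15.4% of all genes, Clec4a1 within the background range on all arrays. Clec4b1, a receptor of the DCAR type next to Clec4a2, was at 5.73 and 5.56 with the combination, against 6.49 and 7.19 with vehicle (difference -1.20, SE 0.27). Clec4b2, another DCAR, was at 8.58 and 6.69 with the combination, against 9.58 and 7.68 with vehicle. Array 1 was the higher one in both groups, the combination was lower by nearly the same amount within each array number, and the groups overlapped. Clec4a4 stayed within the range of the background probe sets.

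**Figure D4:**
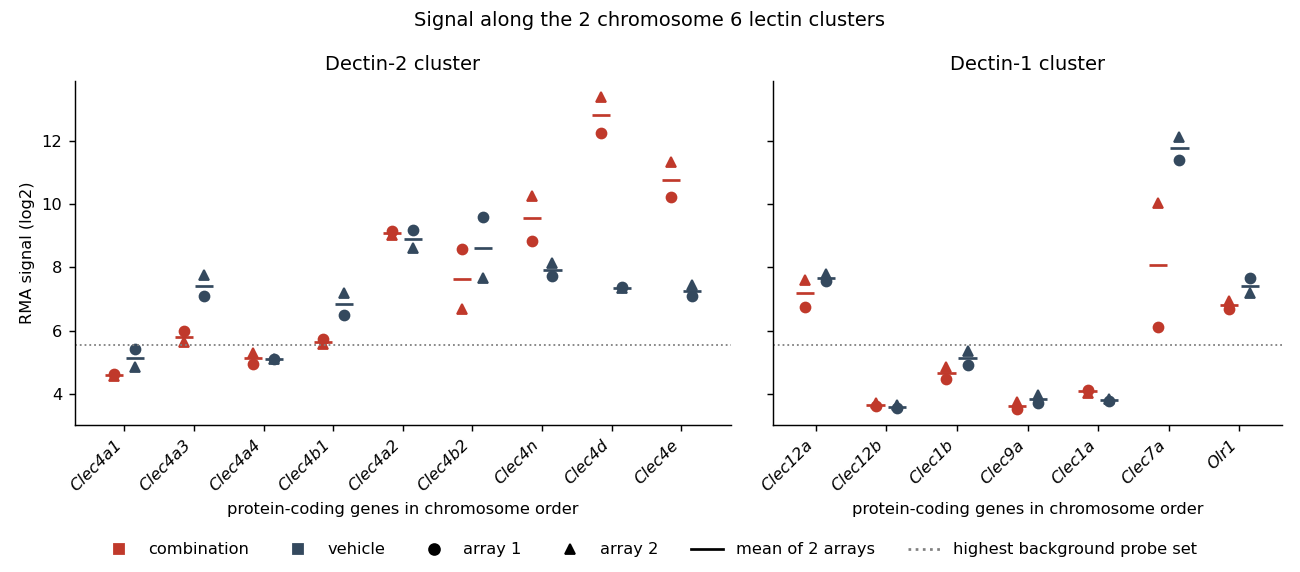
RMA signal (log2, y axis) of the 9 protein-coding genes of the Dectin-2 cluster (left) and the 7 of the Dectin-1 cluster (right), in chromosome order on the x axis. Red marks are combination arrays, dark blue marks vehicle arrays, circles array 1, triangles array 2, bars means of 2 arrays, and the dotted line the highest background probe set. The 3 neighbours Clec4n, Clec4d and Clec4e are higher with the combination, and in the other cluster Clec7a has the widest separation.

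The Dectin-1 cluster reads Clec12a, Clec12b, Clec1b, Clec9a, Clec1a, Clec7a and Olr1. Its 4 inner genes Clec12b, Clec1b (the platelet receptor CLEC-2), Clec9a (a receptor of dendritic cells for dead cells) and Clec1a lay within the range of the background probe sets on all 4 arrays. Olr1, the oxidised lipoprotein receptor LOX-1 beside Clec7a, was at 6.68 and 6.94 with the combination, against 7.67 and 7.18 with vehicle. Its difference of -0.62 (SE 0.22) had the sign of that of Clec7a.

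Of 51 other measured genes with a C-type lectin domain, 36 lay within the background range on all arrays, among them Cd209b and Cd207 (langerin). Of the 15 above it, 3 had combination arrays above both vehicle arrays, 6 below both, and 6 overlapped. Over all 30142 genes, those within the background range included, 19.7% lay above both and 15.4% below both. Of the 51, 0 passed limma's adjusted p of 0.05, and 1 was higher and 5 lower at an unadjusted p under 0.05. Over all genes, 5.31% had such an unadjusted p in either direction. The median difference of all 51 was 0.01, like that of all genes (0.01). Clec10a, the galactose-type lectin MGL1 of macrophages, was at 10.41 and 11.54 with the combination, against 8.48 and 8.26 with vehicle (difference 2.61, SE 0.40). Mrc1, the mannose receptor, went the other way, at 8.07 and 9.04 with the combination, against 10.25 and 11.25 with vehicle (difference -2.19, SE 0.47). Klrb1f, an NK receptor gene family member, was at 6.93 and 6.53 with the combination, against 8.01 and 7.77 with vehicle.

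The proteins that carry the lectins' signals were taken from a list of adaptors, kinases and phosphatases. Of 26 measured signalling genes, 0 passed limma's adjusted p of 0.05, 2 were higher and 2 lower at an unadjusted p under 0.05, and the median difference was -0.04. That unadjusted p was reached by 5.31% of all genes in either direction. The adaptors Fcer1g and Tyrobp overlapped between the groups, as did Hcst. Fcer1g, on which Mincle, MCL and Dectin-2 depend, differed by 0.14 (SE 0.50) and Tyrobp, the adaptor of MDL-1, by -0.05 (SE 0.37). Syk, the kinase that the activating lectins share, was at 7.63 and 8.39 with the combination, against 6.92 and 7.58 with vehicle (difference 0.76, SE 0.35). Prkcd, the kinase that links SYK to the adaptor CARD9, was at 9.43 and 10.09 with the combination, against 11.29 and 11.79 with vehicle (difference -1.78, SE 0.30). Ptpn6, which encodes SHP-1, was at 9.71 and 10.23 with the combination, against 10.70 and 11.21 with vehicle. Inpp5d, which encodes the inositol phosphatase SHIP-1, was at 10.29 and 10.86 with the combination, against 9.76 and 9.56 with vehicle. Card9 itself overlapped between the groups, with a difference of -0.34 (SE 0.31).

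Genes that these receptors are known to induce in myeloid cells went in both directions. Of 18 measured, 0 passed limma's adjusted p of 0.05, 2 were higher and 1 lower at an unadjusted p under 0.05, and 10 lay within the background range on all arrays, Il10, Il12b and Il23a among them. That unadjusted p was reached by 5.31% of all genes in either direction. Cxcl2, a neutrophil chemokine, was at 8.91 and 10.02 with the combination, against 4.65 and 4.72 with vehicle, and Ptgs2 (cyclooxygenase-2) at 6.93 and 6.84, against 5.30 and 5.06. The vehicle values of both lay within the background range. Tnf was at 5.57 and 5.41 with the combination, against 6.65 and 6.55 with vehicle. Its combination mean lay within the background range. Nlrp3, the inflammasome sensor, was at 7.48 and 9.27 with the combination, against 7.29 and 7.31 with vehicle, so its higher mean came mainly from combination array 2.

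The genes with the profile most like that of a lectin were found by the root mean square difference between values centred on each gene's own mean, over 4 arrays and 18154 other protein-coding genes. Nearest to Clec4d were Ppbp (0.25), Havcr2 (0.32), Cxcl2 (0.35), Il1r2 (0.36) and Trem1 (0.40). The vehicle means of the first 4 lay within the background range, where differences may be understated, so their distances and order are approximate. The same holds for Plet1 below. Nearest to Clec4e was Plaur, the urokinase receptor, at 0.08, with 13.52 and 14.84 with the combination, against 10.43 and 10.77 with vehicle, and then Cd33 (0.19), Plet1 (0.21), Vcan (0.21) and Cd80 (0.27). The nearest to Clec7a lay further off, with Il6st (1.29), Mrc1 (1.29), Glipr1 (1.34), Gria3 (1.35) and Rassf4 (1.36). Il6st, for example, was at 9.04 and 10.12 with the combination, against 11.34 and 12.01 with vehicle, and so had no array as low as that of Clec7a on combination array 1.

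Other cell type markers were set beside the lectins. Over all genes, 5.31% had an unadjusted p under 0.05 in limma's fit, in either direction. The marker lists were chosen with earlier results known, so nothing is read from the counts here and below. Kit, the sorting marker, was well above background, at 10.51 and 9.62 with the combination, against 10.18 and 10.32 with vehicle. The T and B cell markers Cd3e, Cd4, Cd8a, Cd79a and Ms4a1 lay within the background range on all arrays, as did Ncr1 on the same lymphoid list. Nkg7, also on that list, was far above it, at 12.60 and 12.75 with the combination, against 13.03 and 12.51 with vehicle. The mean log2 signal of 11 measured monocyte markers was 8.88 and 9.18 with the combination, against 8.42 and 8.74 with vehicle, and 4 were higher and 2 lower at an unadjusted p under 0.05. Within that list F13a1 (difference 2.92), Cd14 (2.43), Ms4a6c (1.68) and Fn1 (0.56) were the higher ones, and Ccr2 (-1.77) and Csf1r (-0.91) the lower ones. The mean of 10 dendritic cell markers was 5.78 and 5.72 with the combination, against 6.11 and 6.28 with vehicle, and 0 were higher and 4 lower at that p (Irf8, Batf3, Ciita and H2-Ab1), while Zbtb46, Xcr1 and Itgax lay within the background range. The mean of 14 neutrophil markers was 11.51 and 10.25 with the combination, against 11.17 and 9.56 with vehicle, and 2 were higher and 0 lower at that p. These were Cxcr2, at 12.75 and 13.83 with the combination, against 9.06 and 8.87 with vehicle (difference 4.32, SE 0.38), and Mmp8, a granule collagenase, at 8.13 and 7.37, against 6.29 and 4.34 (difference 2.43, SE 0.70). Both had combination arrays above both vehicle arrays, as Clec4d and Clec4e did. The vehicle mean of Mmp8 lay within the background range, where differences may be understated. Csf3r differed by -0.83 and Ngp by 0.70, while Ly6g and Mmp9 lay within the background range on all arrays.

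The mean of 10 macrophage markers was 5.54 and 5.55 with the combination, against 5.38 and 5.48 with vehicle, with 6 within the background range on all arrays, and 2 were higher and 1 lower at an unadjusted p under 0.05. The widest differences there were those of C1qb (1.09), Adgre1 (-0.56), Mertk (0.52) and C1qc (0.37), the last 2 within that range. C1qb lay within it on both vehicle arrays and just above it with the combination. Of 10 mast cell, basophil and eosinophil markers, 1 was higher (Hdc, which makes histamine, difference 1.71) and 1 lower (Ms4a2, difference -0.40) at that p, and Epx differed by -0.77 and Mcpt8 by -0.41. Of 9 progenitor markers, 0 were higher and 3 lower at that p (Lmo2, difference -0.59, Erg, -0.57, and Myb, -0.51), and Meis1 differed by -0.19. Of 6 erythroid and megakaryocyte markers, 0 were higher and 1 lower (Tfrc, the transferrin receptor, difference -0.79), and Gp9 differed by -0.37, Klf1 by -0.27 and Gata1 by -0.23. None of these markers passed limma's adjusted p of 0.05. The part of these cells in the differences of Cd209a, Clec4d and the other lectins was not tested.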

How the data were processed

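Total RNA of each sample (PicoPure kit) was labelled with the GeneChip WT Pico kit and hybridised to its own array, per the labels' protocols. The authors deposited RMA values, which are log2 signals. RMA and the Transcriptome Analysis Console are named in the submitters' processing notes, with no version or build. RMA makes the arrays' distributions alike, which hides any shift in the RNA content of cells. Array medians lay between 4.36 and 4.44. The number of arrays limits the precision.

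Of 72688 rows, 6732 control rows (AFFX, ERCC and negative or positive controls) were left out. Of the remaining 65956 features 30604 had 1 symbol, 827 of them updated through Entrez identifiers to the RefSeq table of GRCm38.p6. The highest of 23 background probe sets on any array (5.55) marks the background range. Limma 3.58.1 in R 4.3.3 (lmFit, eBayes, two-sided, group as the only term, Benjamini-Hochberg over all features) had 2 residual degrees of freedom and a prior of 2.59. It was tested on simulated data. The simulated arrays were drawn independently, so that test does not cover arrays that deviate together. Members and lists were chosen with earlier results of these data known. Named were all members, up to 4 genes per list by absolute difference, the adaptors Fcer1g and Tyrobp, and the 5 genes nearest in profile to Clec4d, Clec4e and Clec7a. Beyond this rule, cluster neighbours were named for their position, and further list members (Card9, Elane, the late granule genes and those within the background range among them) after their values were seen. Some of the listed genes are not reported here. The alternatives are given in the closing section.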

Additional observations from a re-analysis of the deposited data

How the results depend on the processing

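With limma's adjusted p, 0 of the 10 lectins passed under each of 7 alternatives on all 4 arrays and with any 1 array left out. The number of features past 0.05 was 2, with a robust prior and with centred arrays too. It came to 19 in the fit with the replicate block and to 0 with an intensity trend, with only features at or above the median signal, after a second quantile normalization, with control rows kept and, as lowest and highest, without any 1 array (0 to 0). An unadjusted p under 0.05 with a 2-fold difference took 716 features and 6 lectins, 3 higher (0.72% of all genes) and 3 lower (0.342%). With the block, the adjusted p was 0.064 for Clec4d, 0.067 for Clec4e and 0.076 for Cd209a. The labels do not say what the number marks, and the deviations of same-numbered arrays correlated at r = 0.33 over all features, with 2 pairs only.

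The log2 difference kept its sign in every recomputation for 8 lectins. Without 1 array it lay between 4.91 and 6.05 for Clec4d, 2.96 and 4.07 for Clec4e, 0.92 and 2.34 for Clec4n, -5.66 and -1.72 for Clec7a, -2.35 and -2.14 for Cd209a, and -1.97 and -1.28 for Clec4a3. For Clec7a the lower bound is without combination array 2 and the upper without combination array 1. The sign turned for Clec4a2 (-0.09 to 0.45) and Clec5a (-0.85 to 1.15). The 7 lectins without overlap were 7 after quantile normalization, 8 with centred arrays and 8 to 9 without 1 array, alternatives added after seeing the data. Over all genes the share without overlap was 35.1% on all 4 arrays, 33.9% and 35.6% after those normalizations and 64.5% to 70.3% without 1 array, where 1 array against 2 overlaps less often, so the higher counts show no stronger pattern. Averaging probe sets changed nothing, since each lectin has 1. The cause of these shifts was not tested.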
